A study of Mus musculus with 12 samples.

Results

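The complement genes described here are the 3 chains of C1q (C1qa, C1qb and C1qc), the central components C3 and C4b, the alternative pathway protease Cfb, the anaphylatoxin receptors C3ar1 and C5ar1, and the inhibitor Serping1. They were chosen by symbol, 9 of the 27575 genes that could be matched across all libraries, and all 9 were among the 13944 genes with enough counts to test. Expression was measured by bulk RNA sequencing in 12 libraries of cells labelled monocytes from the meninges, the membranes around the brain, of male C57BL/6J mice. The unstressed group had 3 libraries with no drug in their labels. The other groups came from mice kept under chronic restraint stress for 18 days and then given vehicle, psilocybin or MDMA, with tissue taken 24 hours after the dose, again with 3 libraries each. Vehicle-treated stressed mice were the controls for both drugs, so both drug comparisons share the same 3 vehicle libraries. Psilocybin is a psychedelic that acts on serotonin receptors, and MDMA is an amphetamine that releases serotonin. The labels give no dose or age and do not say that the 3 libraries of a group came from separate animals. The p-values then measure only the spread between these libraries, which may be technical.

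Complement is a cascade of plasma and locally made proteins that tags particles and damaged cells for uptake. C1q binds a target and starts the classical pathway through the proteases C1r and C1s, which cleave C4 and C2. The resulting enzyme cleaves C3, and factor B (Cfb) joins deposited C3b to form the amplifying enzyme of the alternative pathway. The fragments C3a and C5a signal through C3ar1 and C5ar1 on myeloid cells, while the C1 inhibitor (Serping1) blocks C1r and C1s. Microglia and tissue macrophages are well known sources of C1q in and around the brain, and fibroblasts and other stromal cells make Serping1, C3 and C4.

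Vehicle libraries 1 and 3 stood apart from the rest. Libraries had 807725 to 5136953 counts in all, with 3623830, 807725 and 1954222 in vehicle libraries 1, 2 and 3. A count was found for 12691, 15649 and 11039 genes in these and for 15429 to 24122 genes in the other 9. Within the vehicle group, log2 expression of library pairs correlated across genes at 0.477 to 0.626, against 0.805 to 0.954 within the other groups. Ly6c2 and Ccr2, which mark classical monocytes, had 0 and 1 count in vehicle library 1, and both were detected in all other libraries. Of 6 classical monocyte markers, 2 were at 0 in each of vehicle libraries 1 and 3 and none elsewhere. Ttr, the transthyretin gene that marks choroid plexus epithelium, was at 2806 to 64354 CPM (counts scaled to a fixed library total), far above Ccr2 at 0.307 to 111 CPM, and the collagen gene Col1a1 was at 39.3 to 6357 CPM. Transcripts of choroid plexus and fibroblasts were thus present in every library, and their part in the results was not tested. In bulk RNA, fewer cells of a type and less RNA per cell cannot be told apart.

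The genes of the C1q chains lie side by side on the minus strand of chromosome 4 (GRCm38, gene models of GENCODE vM21). C1qb spans 136880129 to 136886187, C1qc 136889804 to 136893065 and C1qa 136895917 to 136898803. C3 lies on chromosome 17 at 57203970 to 57228136, and C4b and Cfb lie on the same chromosome at 34728380 to 34743882 and 34856374 to 34862518. C3ar1 is on chromosome 6 at 122847138 to 122856161, C5ar1 on chromosome 7 at 16246743 to 16259540 and Serping1 on chromosome 2 at 84765387 to 84775444. All 9 are on the minus strand, and values are counts over their exons.

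Promoter sequence was found for 5 of the 9 genes in a RefSeq table of GRCm38.p6. Of those, C1qb and C1qc are shown because their transcripts are chains of one protein, and C3 and C3ar1 because they had few or no counts in the vehicle libraries. Each run is the 250 bases before the transcription start in RefSeq, 5′ to 3′ on the gene's own strand, and all 4 genes are on the minus strand. The positions are chr4:136886201-136886450 for C1qb, chr4:136892915-136893164 for C1qc, chr17:57228137-57228386 for C3 and chr6:122856158-122856407 for C3ar1. The RefSeq start can differ from the GENCODE one: 151 bases of the C1qc run and 4 of the C3ar1 run lie inside the gene model given above, and none of the other runs shown. Capitals mark GAGGAA, a core bound by the myeloid factor PU.1, and TGANTCA, the AP-1 motif, each searched on both strands.
C1qb: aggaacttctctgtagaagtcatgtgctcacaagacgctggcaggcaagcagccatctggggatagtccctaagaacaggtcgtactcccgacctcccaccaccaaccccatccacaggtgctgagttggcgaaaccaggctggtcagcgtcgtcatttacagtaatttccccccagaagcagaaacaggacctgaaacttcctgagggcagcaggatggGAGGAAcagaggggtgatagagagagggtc
C1qc: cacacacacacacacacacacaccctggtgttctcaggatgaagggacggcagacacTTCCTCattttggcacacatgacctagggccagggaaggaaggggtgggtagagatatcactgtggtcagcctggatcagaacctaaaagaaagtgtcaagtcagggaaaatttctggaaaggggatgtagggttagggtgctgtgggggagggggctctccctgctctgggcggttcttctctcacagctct
C3: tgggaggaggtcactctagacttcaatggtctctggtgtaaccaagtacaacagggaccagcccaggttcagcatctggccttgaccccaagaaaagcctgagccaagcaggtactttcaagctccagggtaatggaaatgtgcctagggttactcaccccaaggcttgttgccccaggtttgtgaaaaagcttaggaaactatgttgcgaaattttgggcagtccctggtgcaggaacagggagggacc
C3ar1: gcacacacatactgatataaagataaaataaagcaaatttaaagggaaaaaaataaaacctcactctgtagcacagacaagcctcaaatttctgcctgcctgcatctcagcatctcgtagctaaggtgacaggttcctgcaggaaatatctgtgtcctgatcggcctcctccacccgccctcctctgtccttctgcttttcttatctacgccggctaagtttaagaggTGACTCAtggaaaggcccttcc
C1qb held GAGGAA at positions -30 to -25 from the start. C1qc held it on the opposite strand, printed as its reverse complement, at positions -193 to -188. TGANTCA, which reads alike on both strands at this match, lay in C3ar1 at positions -22 to -16, and the C3 run held neither. GAGGAA occurred in 23.1% of the 27025 promoters of the same length and TGANTCA in 6.87%. The interferon-stimulated response element motif was in 3.04% of all promoters and in none of the 5, and TATAAA was in 13% and, of the 5, in C3ar1 at positions -235 to -230. No match overlapped another, and these are matches of letters, not measured sites.

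No complement gene of the 9 passed the edgeR quasi-likelihood test of any difference among the 4 groups at a Benjamini-Hochberg adjusted p of 0.05, where 0.581% of all tested genes did. At an unadjusted p under 0.05 there were 3 (C3, C3ar1 and Cfb), against 14.3% of all tested genes. DESeq2's likelihood ratio test called the same 3, beside 1422 of the 13944 tested genes. In the vehicle group, 5, 1 and 6 of the 9 genes had no count in libraries 1, 2 and 3. In the other 9 libraries the only such case was C5ar1 in unstressed library 1. Genes of like mean level (4066 genes between 6.62 and 24.8 CPM, the range of the 9 without Serping1) were at 0 in 41.9%, 11.9% and 50.6% of cases in the vehicle libraries, against 0.344% to 6.47% in the others. Zeros in the vehicle group were thus common far beyond complement.

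**Figure D1:**
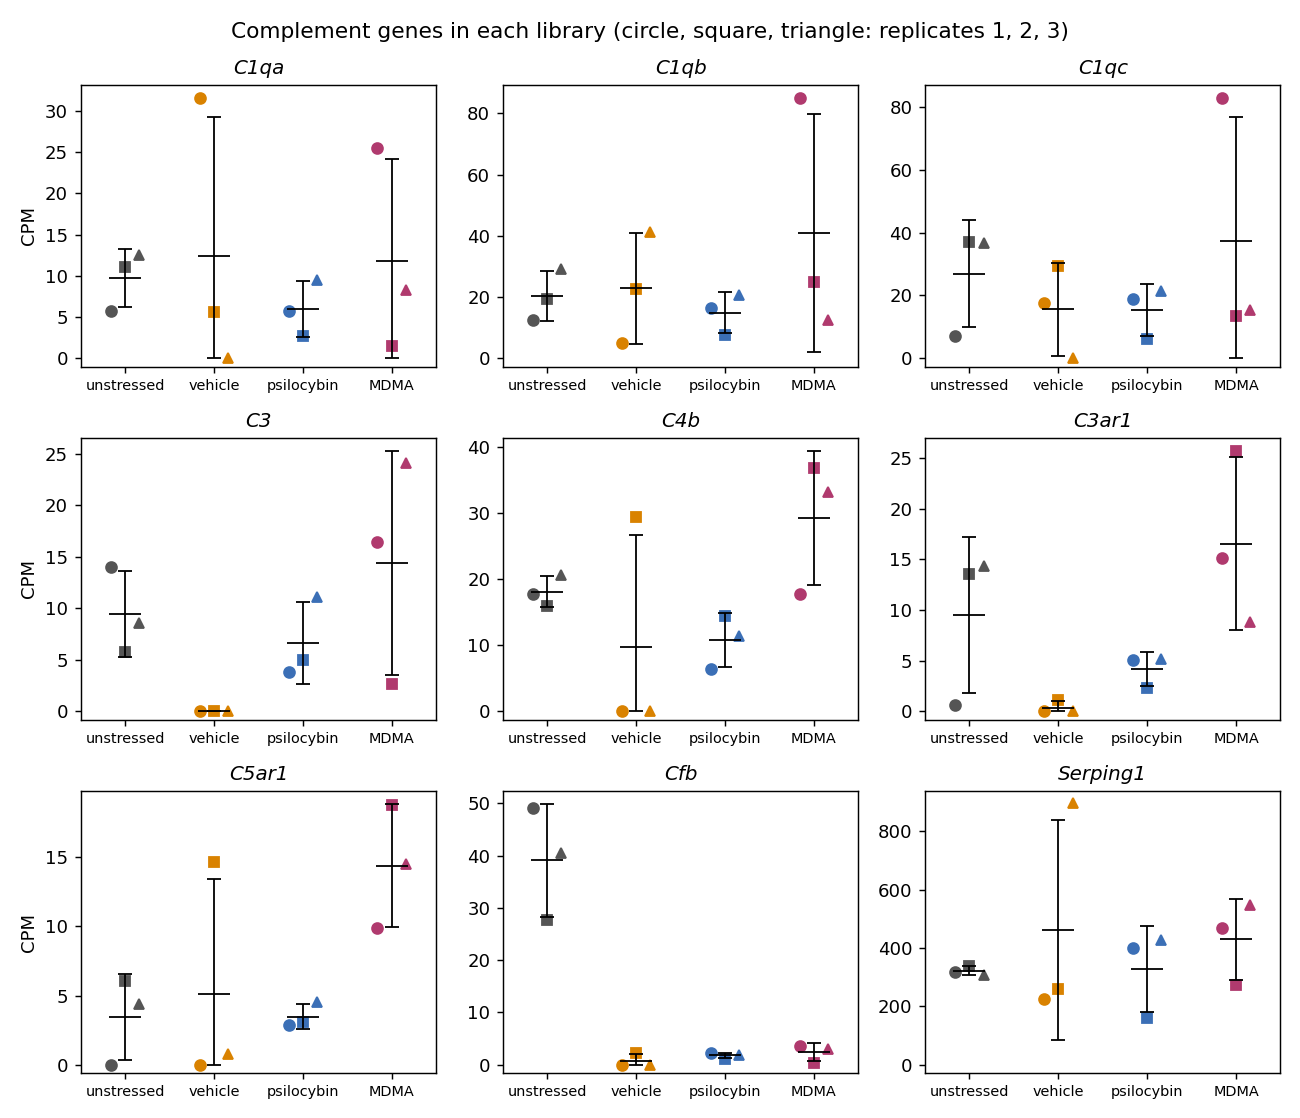
Each panel shows one gene's CPM on TMM-scaled library sizes (vertical axis, linear) in the 3 libraries of each group; the dash and bars are the mean and SD, with the lower bar ended at 0. C3 sits at 0 in the 3 vehicle libraries, Cfb is at 27.7 to 49.1 CPM in unstressed libraries and at most 3.65 CPM elsewhere, and single libraries such as MDMA library 1 lead the C1q panels.

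No test of a single C1q chain separated any pair of groups, and the sum of the chains was not tested. Summed over C1qa, C1qb and C1qc, the level was 57.1 ± 27.8 CPM (SD, n = 3) in unstressed, 50.9 ± 8.61 in vehicle, 36.4 ± 18.1 in psilocybin and 89.8 ± 89.8 in MDMA libraries. The MDMA mean rests on library 1, whose sum was 193.5 CPM while the lowest of the group was 36.2. That library also had the highest level of the microglial gene P2ry12, 69.5 CPM against 0 to 7.39 CPM in the other 11, and the highest level of the neutrophil gene S100a8, 462 CPM against 1.47 to 260 CPM. Summed over 8 microglial markers the gap was smaller. MDMA library 1 was at 734 CPM and MDMA library 3, with the lowest C1q sum of its group, at 620 CPM. The part of these cell types in the C1q values was not tested.

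C1qa, the A chain, was at 5.80, 11.1 and 12.5 CPM in unstressed libraries 1, 2 and 3, at 31.6, 5.64 and 0 in vehicle, at 5.75, 2.67 and 9.48 in psilocybin and at 25.5, 1.53 and 8.33 in MDMA libraries. Its highest value was vehicle library 1 and its only 0 was vehicle library 3, so one group held both ends. C1qb, the B chain, was at 12.6, 19.3 and 29.1 CPM in unstressed, 4.91, 22.6 and 41.2 in vehicle, 16.6, 7.63 and 20.6 in psilocybin and 85.2, 24.9 and 12.4 in MDMA libraries. It had counts in all 12 libraries, and every pair of groups overlapped. C1qc, the C chain, was at 7.16, 36.9 and 36.7 CPM in unstressed, 17.5, 29.3 and 0 in vehicle, 18.8, 6.11 and 21.6 in psilocybin and 82.8, 13.4 and 15.4 in MDMA libraries. Adjusted p-values for any difference were 0.995 for C1qa, 0.898 for C1qb and 0.963 for C1qc. Fitted differences of psilocybin from vehicle were -1.08 ± 1.34 (log2, SE), -0.60 ± 0.97 and 0.00 ± 1.24 for the A, B and C chains. The corresponding differences of MDMA from vehicle were -0.10 ± 1.32, 0.84 ± 0.97 and 1.26 ± 1.26.

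Because C1q protein needs all 3 chains, their shares of the C1q counts were compared within each library. In 10 of the 12 libraries C1qa held 3.85% to 23.0% of the C1q counts, C1qb 28.7% to 62.5% and C1qc 28.0% to 54.8%. Vehicle library 1 differed, with 58.5% from C1qa (103 of 176 counts, exact 95% interval 50.9% to 65.9%) and 9.09% from C1qb (interval 5.29% to 14.3%). Vehicle library 3 differed in the other direction, with all 56 C1q counts from C1qb (lower limit 93.6%) and none from the A or C chain. Intervals cover counting error only, since reads are not independent molecules. Vehicle libraries 1 and 3, outside these ranges, were also those with the fewest genes detected. MDMA library 2 lay at the edge of the ranges, with 19491 genes detected. It had 3.85% from C1qa (interval 1.06% to 9.56%) and 62.5% from C1qb (interval 52.5% to 71.8%).

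**Figure D2:**
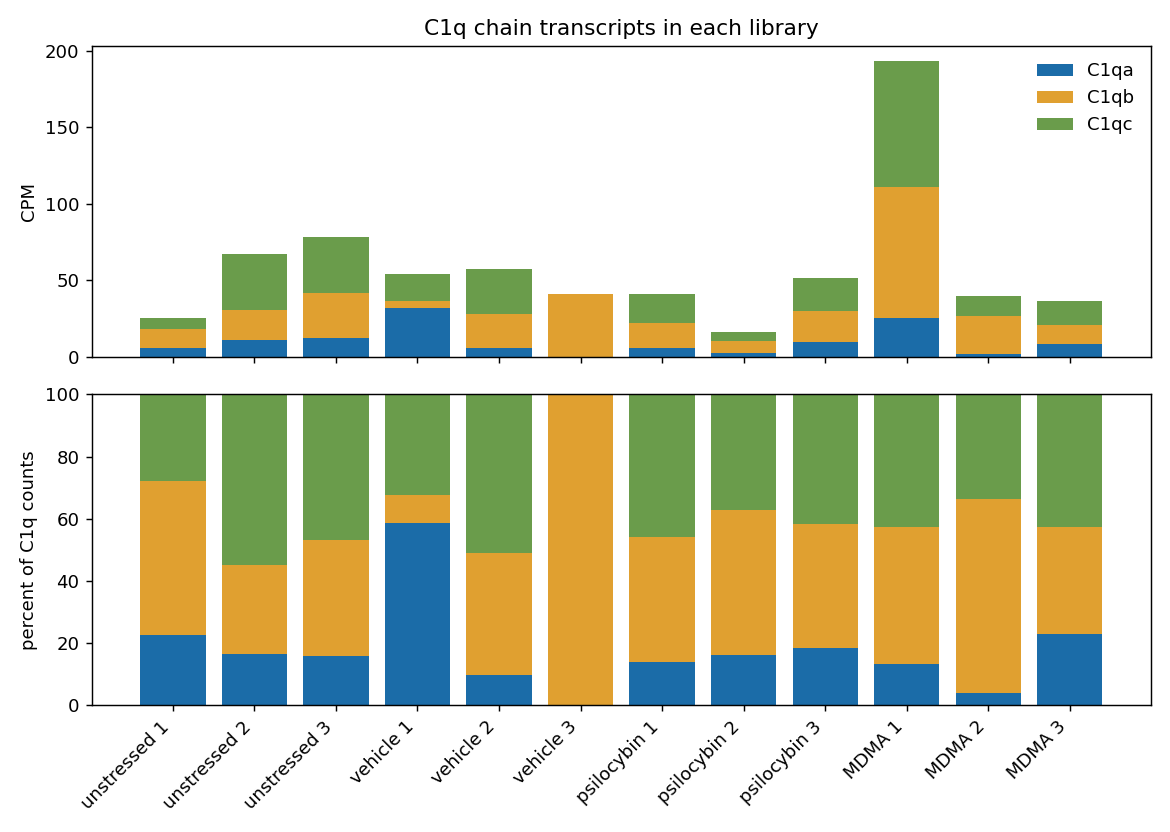
The upper panel stacks the CPM of C1qa, C1qb and C1qc in each of the 12 libraries and the lower panel gives each chain's percent of the library's C1q counts. MDMA library 1 is the tallest bar at 193.5 CPM, and vehicle libraries 1 and 3 stand apart in the lower panel, with 58.5% C1qa and 100% C1qb.

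C3, the component on which all pathways meet, was lower in vehicle than in unstressed libraries. It was at 13.98, 5.79 and 8.55 CPM in unstressed libraries 1, 2 and 3, at 0 in all 3 vehicle libraries, at 3.83, 4.96 and 11.1 in psilocybin and at 16.4, 2.68 and 24.1 in MDMA libraries. Psilocybin and MDMA values overlapped each other and those of unstressed mice, and the vehicle group alone had no C3 count. From a floor of 3 counts over the vehicle group, C3 was at least 16.4-fold lower in vehicle than in unstressed libraries (edgeR adjusted p = 0.0425). The call was lost in 6 of 8 other settings, among them DESeq2 size factors in edgeR (adjusted p = 0.0515) and a fit of the 6 libraries alone (adjusted p = 0.269), and in 9 of 12 fits that left out 1 library; DESeq2 kept it (adjusted p = 0.00153). This call and that of Cfb were the only 2 among the 9 genes, both lower, where 3.41% of all tested genes were called and 3.19% were called lower in vehicle. Both also lay below every unstressed library, as did 17.2% of all tested genes. Of the 4066 genes of like mean level, 3.49% had no count in any vehicle library. C3 was at least 13.3-fold higher in psilocybin than in vehicle libraries (edgeR adjusted p = 0.0974) and at least 31.3-fold higher in MDMA than in vehicle libraries (edgeR adjusted p = 0.0567). Neither passed the edgeR threshold, and DESeq2 called both (adjusted p = 0.00818 and 0.000526). These fold bounds pool the 3 vehicle libraries and cover counting error only, not the spread between libraries. Taken singly, a count of 0 allows up to 0.920, 3.39 and 2.21 CPM in vehicle libraries 1, 2 and 3, which in library 2 is above the lowest MDMA value.

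C4b, the component cleaved by the C1 complex, was not called in any comparison. It was at 17.7, 15.9 and 20.6 CPM in unstressed, 0, 29.3 and 0 in vehicle, 6.39, 14.5 and 11.4 in psilocybin and 17.7, 36.8 and 33.1 in MDMA libraries. The unstressed libraries were the closest to one another, at 18.1 ± 2.34 CPM (SD, n = 3), while the vehicle group held 2 libraries with no count and 1 with 26 counts. The adjusted p of any difference was 0.951. Without vehicle library 2, C4b was lower in vehicle than in unstressed libraries (edgeR adjusted p = 0.00247), so that library decides whether the gene is called. Its near-identical paralog C4a had 0 to 4 counts per library, and counting may split reads between them.

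Cfb, the protease of the alternative pathway, was higher in the unstressed than in the vehicle libraries. It was at 49.1, 27.7 and 40.4 CPM in unstressed, 0, 2.26 and 0 in vehicle, 2.23, 1.14 and 1.90 in psilocybin and 3.65, 0.383 and 3.01 in MDMA libraries. All 9 stressed libraries lay below the lowest unstressed one. The vehicle group held 2 Cfb counts against 434 in the unstressed group, a ratio of 0.00954 in counts per scaled library size (exact 95% counting interval 0.00115 to 0.0347; edgeR adjusted p = 0.0451). This call was lost in 5 of 7 other settings, among them library totals (edgeR adjusted p = 0.0507) and the 6 libraries alone (adjusted p = 0.43), and in 9 of 12 fits that left out 1 library; DESeq2 kept it (adjusted p = 8.38e-05). The same ratio was 0.0474 for psilocybin and 0.0695 for MDMA against unstressed, with fitted log2 differences of -4.44 ± 1.30 and -4.01 ± 1.26 and edgeR adjusted p-values of 0.301 and 0.379. DESeq2 called both (adjusted p = 0.000385 and 0.002), and so did edgeR with the other 6 libraries left out (adjusted p = 0.00228 and 0.0254).

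The annotations on which the unstressed and the stressed libraries were counted differ most, among the 9 genes, at Cfb in the bases not shared with another gene, whereas by exon overlap they differ most at C1qc (Jaccard index 0.54, against 0.977 for Cfb). The unstressed libraries were counted on RefSeq genes, in which Cfb has 2767 exonic bases of its own. In the Ensembl models of GENCODE vM21, the predicted readthrough gene Gm20547 covers 2246 of the 2825 exonic bases of Cfb, and 579 (20.5%) belong to Cfb alone. Gm20547 had 0 counts in all 9 stressed libraries. Per kilobase of these own bases, Cfb was at 14.1 ± 3.88 CPM (SD, n = 3) in unstressed, 1.30 ± 2.25 in vehicle, 3.04 ± 0.964 in psilocybin and 4.05 ± 2.99 in MDMA libraries. On this scale too the groups did not overlap, 10.03 CPM per kilobase being the lowest unstressed and 6.30 the highest stressed value, but the gap was narrower. The ratios, intervals and tests of Cfb given above used counts with no correction for own bases, and no test was run on this scale. The counting command of the stressed libraries is not known, so this scale may correct for the shared bases only in part. Annotation, stress and dosing, which the labels give for stressed libraries only, cannot be told apart for the unstressed comparisons. For C1qc, own bases were 1931 in Ensembl and 1122 in RefSeq models, for Serping1 2325 and 1840 and for C4b 5695 and 5719, and the exons of the other 5 genes were nearly the same in both.

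**Figure D3:**
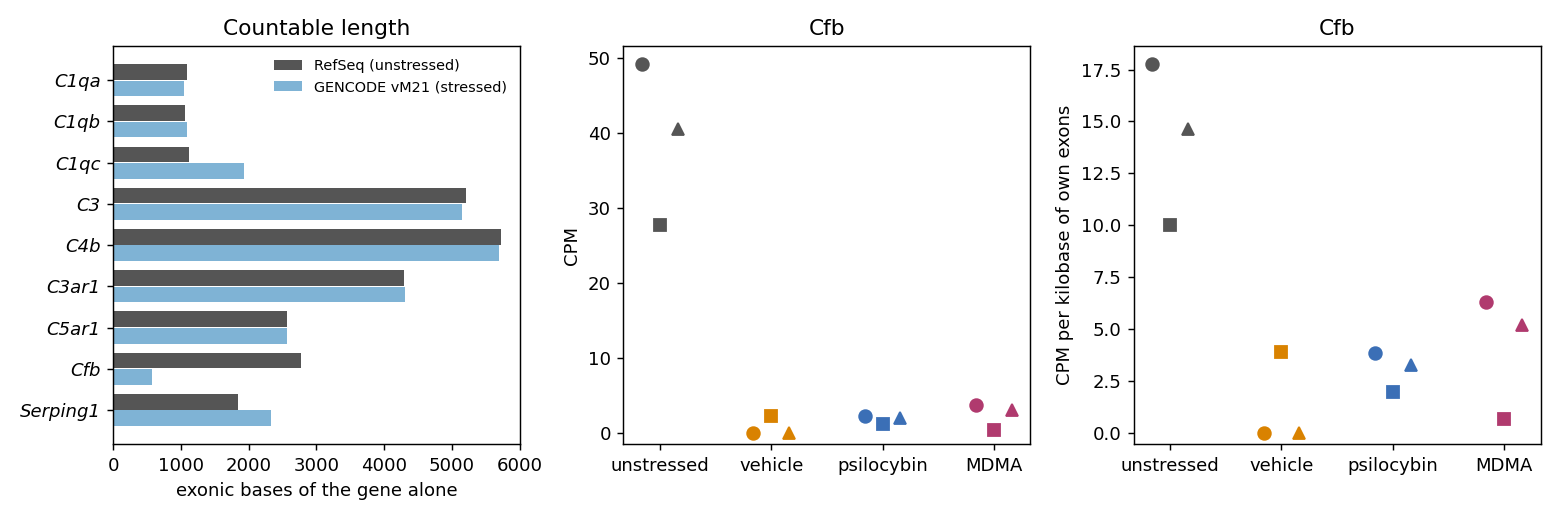
The left panel gives the exonic bases of each gene that no other gene shares, in the RefSeq models used for unstressed libraries and in the GENCODE vM21 models standing for those of the stressed libraries; the other panels show Cfb in CPM and in CPM per kilobase of own bases (points are libraries, linear axes). Cfb has 2767 own bases in RefSeq and 579 in GENCODE, and the unstressed libraries stay highest on both scales.

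C3ar1, the receptor of the C3a fragment, had 1 count in the whole vehicle group. It was at 0.682, 13.5 and 14.3 CPM in unstressed, 0, 1.13 and 0 in vehicle, 5.11, 2.29 and 5.21 in psilocybin and 15.1, 25.7 and 8.86 in MDMA libraries. All psilocybin and MDMA libraries were above all vehicle libraries, and all MDMA libraries were above all psilocybin libraries. In counts per scaled library size, MDMA was 79.7 times vehicle (counting interval 14.1 to 3165) and psilocybin 24.3 times vehicle (interval 4.14 to 981). Neither difference passed the edgeR test (adjusted p = 0.0868 and 0.242), nor did vehicle against unstressed (adjusted p = 0.0958), and DESeq2 called MDMA against vehicle (adjusted p = 0.00247) and vehicle against unstressed (adjusted p = 0.00853). In each of the drug comparisons, C3 and C3ar1 were the only 2 of the 9 genes whose groups did not overlap, both higher with drug. Among all tested genes, 21.1% were higher without overlap in psilocybin and 16.5% in MDMA than in vehicle libraries, so 2 of 9 is near the background.

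C5ar1, the receptor of C5a, was at 0, 6.03 and 4.39 CPM in unstressed, 0, 14.7 and 0.735 in vehicle, 2.87, 3.05 and 4.50 in psilocybin and 9.90, 18.8 and 14.5 in MDMA libraries. All 3 MDMA libraries exceeded every unstressed and psilocybin library, and vehicle library 2 lay among them. The fitted difference of MDMA from unstressed was 2.03 ± 1.49 (log2, SE; edgeR adjusted p = 0.999), and that from vehicle was 1.59 ± 1.52 (adjusted p = 0.673). Per kilobase of own bases, C5ar1 was the lowest of the 9 genes in unstressed libraries, at 1.35 ± 1.21 CPM (SD, n = 3), and 10.9% of all tested genes were higher in MDMA than in unstressed libraries without overlap. The summed classical monocyte markers, 605 ± 333 CPM (SD, n = 3) in MDMA against 177 to 209 CPM on average in the other groups, and the summed neutrophil markers, 1462 ± 849 against 36.3 to 397 CPM, were also highest in the MDMA group. Some libraries ranked otherwise in these sums than in C5ar1. MDMA library 2 had the highest C5ar1 and the lowest sums of its group (277 CPM for monocyte and 578 for neutrophil markers). Psilocybin library 3, with sums of 401 and 930 CPM, had 4.50 CPM of C5ar1. The part of these cell types in the C5ar1 values was not tested.

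Serping1, the C1 inhibitor, was the most abundant of the 9 genes per kilobase in every group, and no test separated the groups. It was at 318, 339 and 309 CPM in unstressed, 225, 261 and 897 in vehicle, 399, 158 and 427 in psilocybin and 468, 275 and 546 in MDMA libraries. The unstressed libraries were close together and vehicle library 3 was the highest. Per kilobase of own bases, Serping1 was at 175 ± 8.29 CPM (SD, n = 3) in unstressed, 198 ± 162 in vehicle, 141 ± 63.5 in psilocybin and 185 ± 60.0 in MDMA libraries, against 19.2, 21.0, 13.7 and 37.5 for C1qb. Fitted differences between the groups ranged from -0.49 ± 0.55 to 0.52 ± 0.55 on the log2 scale, with an adjusted p of 0.974 for any difference. The summed fibroblast markers followed the extremes within the vehicle group, at 762 CPM in library 1, where Serping1 was lowest, and 8135 CPM in library 3, where it was highest. In the unstressed and MDMA groups, too, the library highest in these markers was highest in Serping1. In the psilocybin group, library 1 was highest in the markers (3837 CPM) and library 3 in Serping1. Some libraries of different groups ranked otherwise: MDMA library 2 had 9585 CPM of markers and 275 of Serping1, psilocybin library 3 had 3700 and 427. The part of fibroblasts in the Serping1 level was not tested.

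Set side by side, the drugs gave no called difference among the 9 genes. Psilocybin was below MDMA in the fitted difference of all 9, with a median of -1.26 on the log2 scale against 0.02 over all tested genes, and 0 of 9 passed the edgeR test (0% of all genes; 0 of 9 also at an unadjusted p under 0.05, and 0 by DESeq2). C4b, C3ar1 and C5ar1 were lower in psilocybin than in MDMA libraries without overlap, by fitted log2 differences of -1.44 ± 1.42, -1.96 ± 1.20 and -2.03 ± 1.5, all with an edgeR adjusted p of 1. Of all tested genes, 6.28% were lower without overlap. The 9 differences rest on the same 6 libraries and are not independent. Without MDMA library 1, they turned positive for C1qa (0.25) and C1qc (0.06) and were -0.009 for Cfb. The remaining genes stayed negative.

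Against vehicle, the median fitted difference of the 9 genes was 0.00 for psilocybin and 1.59 for MDMA on the log2 scale, beside 0.31 and 0.24 over all tested genes. The edgeR test called 0 of 9 in both comparisons (0.0143% and 0.674% of all tested genes), and 2 of 9 had an unadjusted p under 0.05 in each (15.9% and 16.7% of all genes). DESeq2 called 1 (C3) and 2 (C3 and C3ar1), beside 1057 and 1335 of the 13944 tested genes. Against unstressed, 0 of 9 were called for psilocybin and for MDMA by edgeR (0.0861% and 0.122% of all genes), Cfb alone had an unadjusted p under 0.05 in both (6.34% and 4.98% of all genes), and DESeq2 called Cfb in both. These tests of Cfb did not correct for its unlike own bases in the annotations. Of all tested genes, DESeq2 called 245 for psilocybin and 218 for MDMA against unstressed. Without overlap, Cfb and C4b were lower in psilocybin and Cfb in MDMA than in unstressed libraries, as were 18% and 11.5% of all tested genes. The medians of the 9 genes against unstressed were -0.80 for vehicle, -0.71 for psilocybin and 0.62 for MDMA, beside -0.18, 0.02 and 0.04 over all genes.

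**Figure D4:**
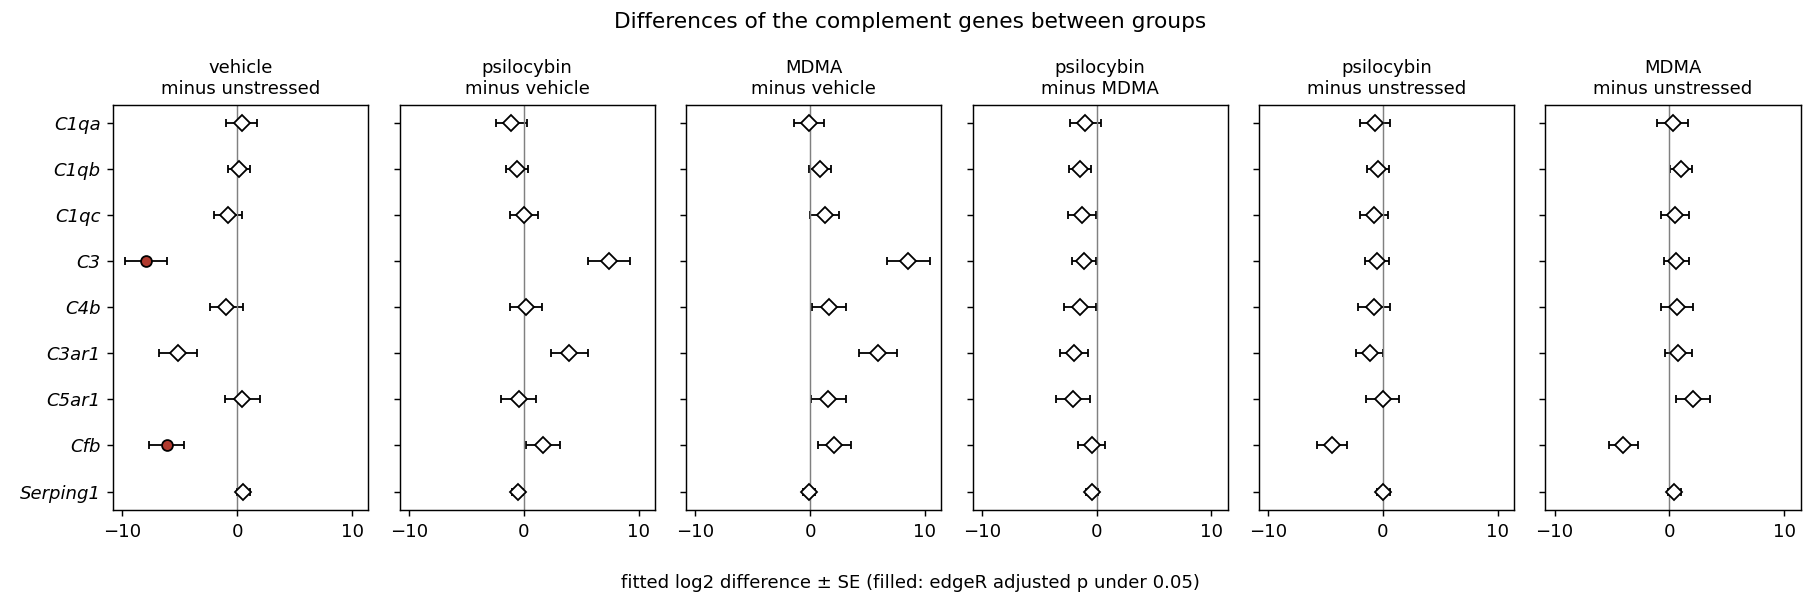
Points are fitted log2 differences of the 9 genes in the group comparisons, with bars of 1 SE; filled points have an edgeR adjusted p under 0.05. The filled points are C3 (-7.94) and Cfb (-6.13) in vehicle minus unstressed; fitted values of C3 against vehicle depend on the treatment of 0 counts and are no bounds.

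The rest of the pathway was read from 40 other complement genes, of which 20 had enough counts to test. The list was called in a single comparison, with 2 of 20 lower in vehicle than in unstressed libraries (adjusted p = 0.0425 for both by edgeR), beside 3.41% of all tested genes called and 3.19% called lower. These were Cr2, the receptor of C3d known from B cells, at least 10.1-fold lower, and Itgax, the CD11c chain of complement receptor 4, at least 14-fold lower. Both had no count in the vehicle libraries, and their bounds also cover counting error only. The share of genes at their level with no vehicle count was not taken, and their calls were not followed through the other settings. Their exons also differ between the annotations (Jaccard index 0.854 for Cr2 and 0.82 for Itgax). Cr2 was at 8.87, 3.86 and 4.85 CPM in unstressed, 0.958, 0.763 and 1.90 in psilocybin and 2.34, 0.383 and 0.886 in MDMA libraries. Itgax was at 8.53, 2.41 and 12 CPM in unstressed, 1.28, 1.53 and 2.13 in psilocybin and 0.521, 1.15 and 3.19 in MDMA libraries. Itgam, the CD11b chain of complement receptor 3, had 1 count in the vehicle group and 14.2 ± 13.99 CPM (SD, n = 3) in unstressed libraries (adjusted p = 0.0578 by edgeR); 1574 of its 5024 exonic bases in the GENCODE models are its own. Itgb2, the chain that Itgam and Itgax share, was detected in all 12 libraries, at 28.0 ± 6.01, 23.3 ± 6.55, 27.9 ± 23.2 and 69.5 ± 12.4 CPM in unstressed, vehicle, psilocybin and MDMA groups.

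Among initiators and proteases, C1s1, which cleaves C4 and C2, was at 64.7 ± 18.9 CPM (SD, n = 3) in unstressed, 16.7 ± 12.7 in vehicle, 36.0 ± 11.9 in psilocybin and 43.6 ± 6.61 in MDMA libraries (edgeR adjusted p of any difference 0.529). Fcnb, a ficolin of the lectin pathway made by myeloid cells, had the smallest p of any difference in this list (0.00277, edgeR adjusted p = 0.126). Its values were 0, 0.241 and 0 CPM in unstressed, 1.53, 0 and 0 in vehicle, 0.319, 0.763 and 8.53 in psilocybin and 32.8, 2.68 and 27.8 in MDMA libraries. The libraries highest in Fcnb (MDMA 1 and 3, psilocybin 3) were also the highest in the summed neutrophil markers, at 2270, 1538 and 930 CPM, and their part in the Fcnb values was not tested. Masp1, a lectin pathway protease, was at 54.0, 0 and 30.2 CPM in the vehicle libraries and at most 4.62 CPM elsewhere (edgeR adjusted p of any difference 0.286). Cfp, properdin, which stabilizes the alternative pathway enzyme, was at 8.65 ± 1.75, 33.7 ± 26.9, 11.5 ± 6.84 and 18.0 ± 8.05 CPM in unstressed, vehicle, psilocybin and MDMA groups.

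The regulators included Clu, which per kilobase of own bases was the highest of the 40 genes in every group. Clu, clusterin, which blocks the terminal complex and is known from choroid plexus and astrocytes, was at 708 ± 70.7 CPM (SD, n = 3) in unstressed, 1450 ± 658 in vehicle, 1636 ± 327 in psilocybin and 980 ± 40.0 in MDMA libraries (edgeR adjusted p of any difference 0.295). Its own bases were 2101 in RefSeq and 3437 in Ensembl models. Per kilobase of these, Clu was at 337 ± 33.7, 422 ± 192, 476 ± 95.1 and 285 ± 11.6 CPM in the same order. On that scale the MDMA mean lay below the unstressed mean. The summed choroid plexus markers were at 31406 ± 14458, 72186 ± 62368, 84572 ± 35692 and 31316 ± 10249 CPM in the same order, and their part in Clu was not tested. Vtn, vitronectin, was at 64.8 ± 18.6, 186 ± 117, 229 ± 63.2 and 242 ± 66.8 CPM (adjusted p 0.225 by edgeR). Cd46, a cofactor for C3b cleavage, reached 497 CPM in vehicle library 3 and was at 0.307 to 57.1 CPM in the other 11. Terminal components were scarce: C8g, at 6.30 ± 4.04, 0.376 ± 0.652, 3.84 ± 1.76 and 7.93 ± 6.09 CPM, was the highest of its role. Cfd, factor D of the alternative pathway, had 1 count in all 12 libraries together.

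**Figure D5:**
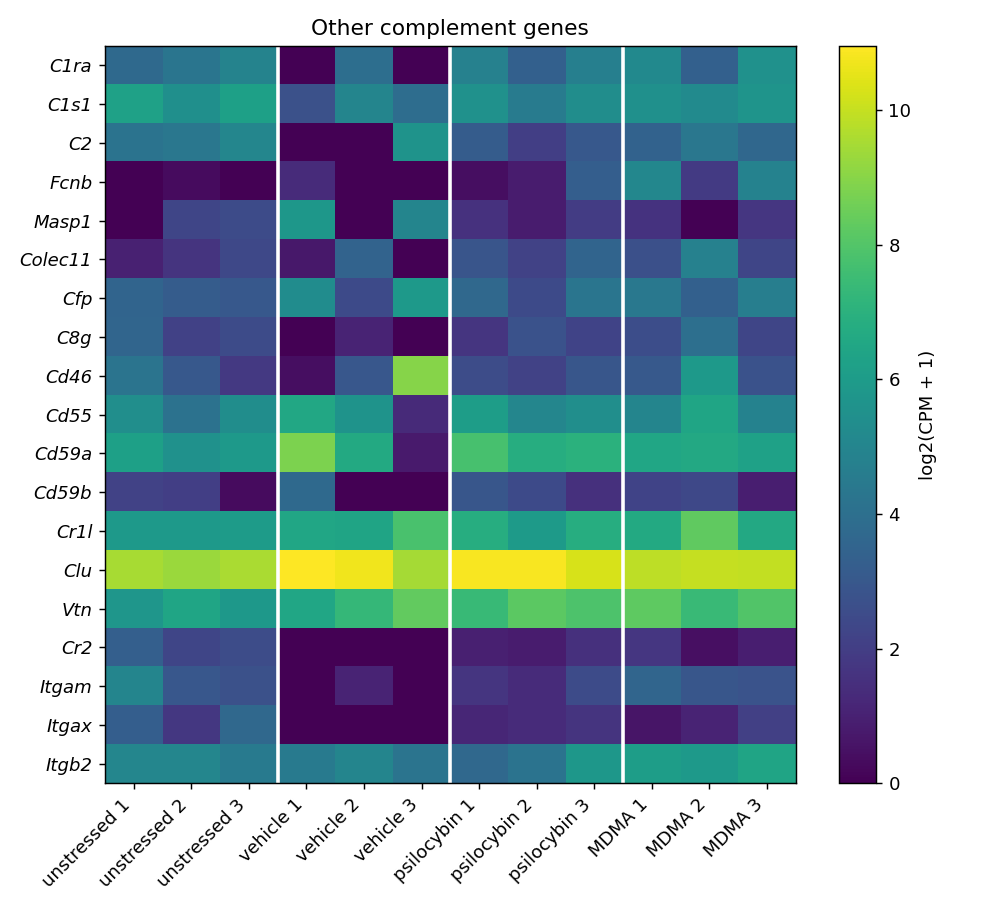
Colour gives log2(CPM + 1) of 19 other complement genes with enough counts to test, one column per library. Clu is the brightest row in every group, and the vehicle columns hold most of the dark cells, Cr2 and Itgax being at 0 in all 3.

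The genes most like these across libraries were listed by Pearson correlation of log2(CPM + 1) over the 12 libraries, as a description that shares the libraries' depth and their zeros. For the mean of the C1q chains, among 11715 genes at 5 CPM or more, these were Paqr6 (0.813), Cyfip1 (0.805), Susd6 (0.797), Cd83 (0.789) and Maff (0.78). For C3, among 11717 genes, they were Ckap2l (0.967), Atp8b4 (0.966), Rad54l (0.964), Racgap1 (0.961) and Bid (0.956). For Serping1 they were Il33 (0.941), Igtp (0.928), Cxcl12 (0.913), Htra1 (0.894) and Fmo2 (0.89). The closest genes to C3, which has 3 libraries at 0, had the highest coefficients. Those closest to Serping1, which has counts in all 12 libraries, also had higher coefficients than those closest to C1q.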

How the data were processed

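The deposited values of the 12 libraries were raw read counts for each gene; per the labels' protocols, cells were taken with a magnetic monocyte kit and libraries made from 5 ng of total RNA. Per the submitters' processing notes, the tools were fastp 0.23.2, STAR 2.7.5c, edgeR 3.42.4, featureCounts 2.0.1, FastQC 0.11.9 and MultiQC 1.11, with mm10. Per the file headers, unstressed libraries were counted over RefSeq exons with no strand or paired-end option. Stressed libraries carry Ensembl identifiers; the sources used here give neither release nor command. In a series-wide table, 3 columns matched none of the 12 libraries and were not used here.

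Genes were joined through GENCODE vM21 by symbol (26665) or position (910, exon Jaccard index of at least 0.5), keeping 94.8% to 99.09% of each library's counts. In R 4.3.3, counts were scaled by TMM, filtered with filterByExpr and tested with edgeR 4.0.16 quasi-likelihood tests over all 12 libraries, with Benjamini-Hochberg adjustment over all 13944 genes at 0.05. DESeq2 1.42.0 was an alternative. CPM use TMM-scaled library sizes. For a group at 0, a floor of 3 counts pooled over the group gives a bound. Ratios with 1 to 3 counts carry exact 95% counting intervals. Neither covers the spread between libraries. The code was tested on simulated data. Of the tested complement genes, 1 is not reported here. The 9 genes and all lists were chosen with earlier results of these data known. Named genes were the 9, up to 10 other complement genes with the smallest p of any difference, the highest of each role, the 5 most correlated genes and 8 defining markers. Same-numbered vehicle and psilocybin libraries deviated together (correlations across genes 0.126, 0.194 and 0.114), so the numbers may pair them, a reading of the data only, since no label says what a number stands for. The reported tests did not pair libraries, and a block for the replicate number was fitted only as an alternative.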

Additional observations from a re-analysis of the deposited data

How the results depend on the processing

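No difference of the 9 genes was called with the opposite sign under any setting. The calls of C3 and Cfb in vehicle against unstressed libraries depended on the setting. The number called, 2 as reported, was 0 with DESeq2 size factors in edgeR, 0 with the replicate block, 0 of 5 measured over genes with nearly the same exons, 0 without vehicle libraries 1 and 3 and 0 of 8 measured in the 6 libraries alone. It was 1 on library totals (C3), 1 without the filter (Cfb) and 0 to 4 leaving out 1 library at a time. Leaving out vehicle library 2 gave 4 (C3, C4b, C3ar1 and Cfb), leaving out vehicle library 3 or MDMA library 2 gave the same 2, and leaving out any other library gave 0. Over all genes, 476 calls became 2 to 3667. DESeq2 itself called 3 of the 9 in vehicle against unstressed (C3, C3ar1 and Cfb) and in the test of any difference, 1 in psilocybin and 2 in MDMA against vehicle, and 1 in each drug group against unstressed. Over the 13944 tested genes it called 1746 in vehicle against unstressed and 1422 for any difference. It called 1057 and 1335 for psilocybin and MDMA against vehicle, and 245 and 218 against unstressed. Cfb, 1 gene, was also called for any difference without the filter and without vehicle libraries 1 and 3, and in both drug groups against unstressed without those libraries or in the 6 libraries alone. None of these fits corrected for the own bases of Cfb. Leaving out 1 library gave 0 to 4 for any difference, 0 to 4 for psilocybin and 0 to 5 for MDMA against vehicle, each highest without vehicle library 2. The cause was not tested.

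Some uncalled differences changed sign (log2). For C1qc in psilocybin minus vehicle, 0.00 as reported, values were -0.16 with DESeq2 size factors, -0.034 on library totals, -0.061 without the filter, -0.17 in DESeq2, -0.89 without vehicle libraries 1 and 3, -0.091 in the 6 libraries and -0.08 in the 9 stressed libraries on their own annotation. On library totals, C1qb in vehicle minus unstressed was -0.039, C1qa and Serping1 in MDMA minus vehicle 0.11 and 0.27, and C5ar1 in psilocybin minus unstressed 0.005. C5ar1 in psilocybin minus unstressed was 0.047 without the filter, 0.048 over genes with nearly the same exons and 0.012 without vehicle libraries 1 and 3. Without those libraries, vehicle minus unstressed was -0.79 for C1qa, 0.12 for C1qc, 0.70 for C4b and -0.30 for Serping1. Psilocybin minus vehicle was then 0.12 for C1qa, -1.42 for C4b, -0.32 for Cfb and 0.36 for Serping1, and MDMA minus vehicle was 1.11 for C1qa, -0.002 for C5ar1 and 0.76 for Serping1.

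With the replicate block, signs changed for C1qa (-0.48) and C5ar1 (-0.025) in vehicle minus unstressed, C5ar1 in psilocybin minus vehicle (0.88), Serping1 in MDMA minus vehicle (0.031), C5ar1 (0.86) and Serping1 (-0.14) in psilocybin minus unstressed and C1qa in MDMA minus unstressed (-0.55). The block changed no other call among the 9 genes, and over all genes 10 were called with it in vehicle against unstressed, 476 without. Every library of the unstressed and vehicle groups correlated best with its own number, as did those of vehicle and psilocybin, and those of other pairs of groups did not all do so.

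Leaving out 1 library at a time, ranges that crossed 0 in vehicle minus unstressed were -1.90 to 0.98 for C1qa, -0.61 to 0.65 for C1qb, -3.57 to 1.16 for C5ar1 and -0.39 to 0.85 for Serping1. In psilocybin minus vehicle they were -1.66 to 1.20 for C1qa, -1.08 to 0.19 for C1qb, -0.57 to 0.73 for C1qc, -0.40 to 8.20 for C4b, -1.08 to 3.55 for C5ar1 and -0.81 to 0.44 for Serping1. In MDMA minus vehicle they were -1.38 to 2.17 for C1qa, -0.28 to 1.64 for C1qb, -0.13 to 2.03 for C1qc and -0.42 to 0.84 for Serping1. In psilocybin minus MDMA they were -1.52 to 0.25 for C1qa and -1.69 to 0.06 for C1qc, both highest without MDMA library 1. In psilocybin minus unstressed they were -0.60 to 0.62 for C5ar1 and -0.20 to 0.36 for Serping1, and in MDMA minus unstressed -0.97 to 0.80, -0.064 to 1.49 and -0.87 to 0.89 for C1qa, C1qb and C1qc. Depth limits genes under about 3.39 CPM in vehicle library 2. Scaling moved the median of all genes in vehicle minus unstressed from -0.18 to 0.00 with DESeq2 size factors and -0.27 on library totals.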

Other observations

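Markers of other cells varied between groups beside the complement genes. Summed border macrophage markers, of cells known to make C1q, were at 76.0 ± 50.9 CPM (SD, n = 3) in unstressed, 167 ± 212 in vehicle, 57.8 ± 47.1 in psilocybin and 125 ± 48.2 in MDMA libraries. Vehicle library 3, in which all C1q counts came from C1qb, held the highest sum, 409 CPM, with 272 CPM from Mrc1 and 4 of 7 markers at 0. Summed microglial markers were at 346 ± 92.8, 285 ± 159, 350 ± 113 and 601 ± 144 CPM in unstressed, vehicle, psilocybin and MDMA groups, and P2ry12 was at 0 in all 3 vehicle libraries. Summed dendritic cell markers were at 171 ± 102, 67.4 ± 88.4, 73.7 ± 30.3 and 94.8 ± 11.8 CPM, with 5, 3 and 3 of 6 markers at 0 in vehicle libraries 1, 2 and 3. Summed B cell markers were at 48.0 ± 37.6, 13.8 ± 11.97, 35.9 ± 34.5 and 33.8 ± 25.8 CPM, and vehicle library 3 had none of the 5 measured. Their part in the values of Itgax and Cr2 was not tested.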
